A study of Mus musculus with 4 samples.

Results

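Carboxylesterases of mouse liver were described from 10 named genes, Ces1c, Ces1d, Ces1e, Ces1f, Ces1g, Ces2a, Ces2c, Ces2e, Ces3a and Ces3b, out of 18193 named genes of the array. A gene was measured where a probe set carried its symbol alone, which held for 7 of the 10 genes with 9 probe sets in all. Ces3a and Ces3b were named only together on a shared probe set, and Ces2c had no probe set of its own symbol, so these 3 genes have no value here. All 9 probe sets were at or above the array median on all 4 arrays. The arrays held liver RNA of male mice in 4 groups of 1 array each: LASS2-/- on high-fat diet (HFD), wild type (WT) on HFD, LASS2-/- on chow and WT on chow. HFD held 60% and chow 10% of calories from fat, and both were given from 3 weeks of age. The labels name neither strain nor age at collection, do not say how LASS2 was inactivated or in which cells, and do not say whether an array held 1 mouse or a pool.

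Carboxylesterases are serine hydrolases of the endoplasmic reticulum lumen that cleave ester bonds in drugs and in stored lipids, and hepatocytes make large amounts of them. Some act on triglyceride, and lipid that they release can be built into very-low-density lipoprotein, while a secreted member circulates in mouse plasma. Mice carry many more copies of these genes than humans. All 20 genes of the family that were looked up lie on chromosome 8, with the Ces1 genes side by side in one block and the Ces2 and Ces3 genes in another. LASS2 is the former name of Cers2, an enzyme that builds ceramides with very long acyl chains.

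The signal of Cers2 was looked up as a check of the genotype labels. It was 12.32 log2 on LASS2-/- HFD against 12.25 on WT HFD, and 12.32 on LASS2-/- chow against 12.46 on WT chow, so that LASS2-/- arrays lay below WT on chow and above it on HFD. The mean genotype effect of Cers2 was -0.04 log2 (adjusted p = 0.948 in limma), so no loss of its signal was seen. Whether the probe set reads the inactivated part of the transcript is not known. Genotype directions below rest on the labels, and LASS2-/- and WT name the arrays so labelled. Of 6 hepatocyte markers, 5 were measured. Their summed level was 17.38 log2 on LASS2-/- HFD, 17.45 on WT HFD, 17.64 on LASS2-/- chow and 17.57 on WT chow.

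With the high-fat diet, Ces2a fell and Ces1g and Ces2e rose, and Ces2a also fell with the LASS2-/- label. Ces1c, Ces1d, Ces1e and Ces1f passed the test for neither. These calls come from limma, fitted to all 12493 genes that reached the array median, with mean effects of diet and genotype. Its only residual degree of freedom per gene is the difference between the diets in genotype effect, and the standard errors after ± are moderated towards genes of like signal. They therefore do not measure the spread between mice. For diet, 3 of the 7 measured carboxylesterases passed at an adjusted p below 0.05, against 11.3% of all genes and 21.3% of the 3123 brightest genes, which include all 7. Of the 7, 2 rose (6.26% of all genes) and 1 fell (5.04%). For genotype 1 of 7 passed, against 0.913% of all genes and 1.86% of the 3123 brightest, with 0 higher (0.56% of all genes) and 1 lower (0.352%). At an unadjusted p under 0.05, 3 of 7 were found for diet, against 23.8% of all genes, and 3 of 7 for genotype, against 10.4%.

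**Figure D1:**
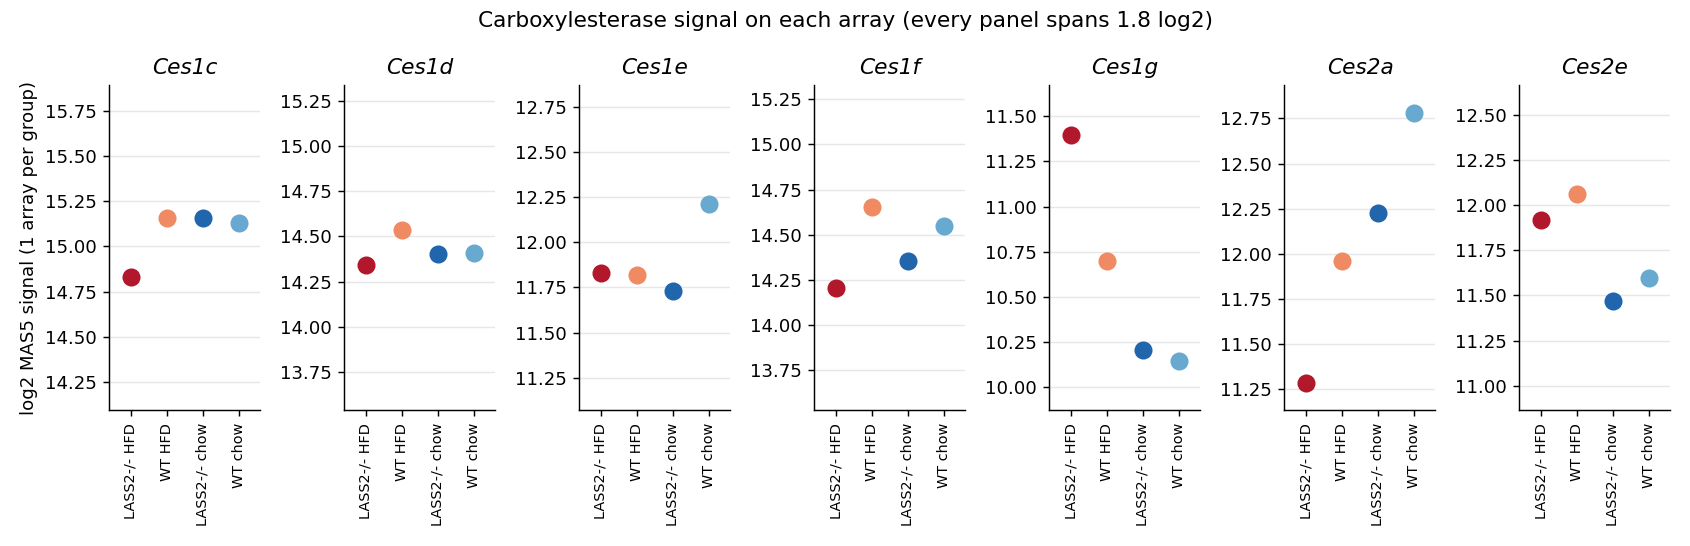
The log2 MAS5 signal of the brightest probe set of each measured carboxylesterase is plotted for each group, 1 array per point, with the same height of scale in every panel. Ces2a is lowest and Ces1g highest on LASS2-/- HFD, and both HFD arrays of Ces2e lie above both chow arrays.

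The stretches of 250 bases before the annotated starts of the 3 genes that passed for diet are shown so that the regulatory sequence of a gene that fell can be set beside those of genes that rose. They are RefSeq sequences of build GRCm38.p6, read towards the gene. Ces2a lies on the plus strand at chr8:104733753-104734002, Ces2e on the plus strand at chr8:104926010-104926259 and Ces1g on the minus strand at chr8:93337210-93337459. Capitals mark AGGTCA, the core of nuclear receptor sites, CCAAT, the CCAAT box, and TATAAA, the TATA box, on either strand, so that ATTGG and TTTATA are matches of the complement.
Ces2a: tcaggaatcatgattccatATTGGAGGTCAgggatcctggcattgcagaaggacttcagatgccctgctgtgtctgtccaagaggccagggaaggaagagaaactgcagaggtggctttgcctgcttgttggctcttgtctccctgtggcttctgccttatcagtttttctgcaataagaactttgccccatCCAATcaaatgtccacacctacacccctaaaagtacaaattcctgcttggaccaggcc
Ces2e: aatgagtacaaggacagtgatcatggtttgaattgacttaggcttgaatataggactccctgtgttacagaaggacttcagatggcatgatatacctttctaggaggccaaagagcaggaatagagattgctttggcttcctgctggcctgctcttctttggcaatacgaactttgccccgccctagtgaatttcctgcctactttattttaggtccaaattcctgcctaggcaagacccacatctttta
Ces1g: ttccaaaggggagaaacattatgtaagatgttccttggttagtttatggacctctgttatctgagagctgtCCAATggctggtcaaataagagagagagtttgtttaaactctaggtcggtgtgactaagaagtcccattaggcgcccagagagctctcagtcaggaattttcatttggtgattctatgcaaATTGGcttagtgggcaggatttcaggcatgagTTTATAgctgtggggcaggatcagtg

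Ces2a held CCAAT 58 to 54 bases before its start and its complement 231 to 227 bases before it, where it directly adjoins an AGGTCA at 226 to 221. Ces1g held CCAAT at 179 to 175, its complement at 58 to 54 and the complement of TATAAA at 26 to 21. Ces2e held no match to these, and neither TGACNNNGC, the core of the antioxidant response element, nor GTTAAT, part of HNF1 sites, matched any of the 3. Among 32851 promoter windows of the same length, 33.8% held CCAAT, 14.0% AGGTCA, 12.4% TATAAA, 10.2% TGACNNNGC and 6.43% GTTAAT on either strand. The longest run shared by Ces2a and Ces2e was the 17 bases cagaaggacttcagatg, 205 to 189 bases before the start of Ces2a and 183 to 167 before that of Ces2e. Ces2a and Ces1g shared at most 8 bases in a row. Promoter sequences were matched for 7 of the 10 genes, and those of genes that did not pass for diet are not printed.

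Ces2a belongs to the subfamily of the human esterase CES2, which hydrolyses ester drugs. Its log2 signal was 11.29 on LASS2-/- HFD, 11.96 on WT HFD, 12.23 on LASS2-/- chow and 12.78 on WT chow. Both HFD arrays lay below both chow arrays, and on each diet the array labelled LASS2-/- lay below WT. The HFD array was 1.92-fold below the chow array under the LASS2-/- label and 1.77-fold below it in WT. The mean diet effect was -0.88 ± 0.10 log2 (adjusted p = 3.29e-05 in limma). The label LASS2-/- went with 1.59-fold less on HFD and 1.47-fold less on chow, a mean effect of -0.61 ± 0.10 log2 (adjusted p = 0.00668 in limma). The genotype ratio differed by -0.12 log2 between HFD and chow. Of the 3123 brightest genes, 3.65% were at least as far apart between diets under the LASS2-/- label, 4.03% in WT, 1.63% between genotypes on HFD and 2.37% on chow. The genotype call was lost with quantile normalization (adjusted p = 0.0524) and without a trend in the moderation (0.742), against a lowest value of 0.000947 among its 10 alternatives. Without the trend 0 genes passed for diet or genotype in limma, with 1783 and 820 at an unadjusted p under 0.05.

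Ces2e, an esterase of the same subfamily that is made in intestine as well as liver, had log2 signals of 11.92 on LASS2-/- HFD, 12.06 on WT HFD, 11.47 on LASS2-/- chow and 11.60 on WT chow. Both HFD arrays lay above both chow arrays. It was 1.36-fold higher on HFD under the LASS2-/- label and 1.38-fold higher in WT, with a mean diet effect of 0.46 ± 0.10 log2 (adjusted p = 0.00743 in limma). This size is less rare among bright genes, as 15.6% of the 3123 brightest genes were at least as far apart under the LASS2-/- label and 12.3% in WT. Its genotype ratios were -0.15 log2 on HFD and -0.13 on chow (adjusted p = 0.723 in limma for the mean). Ces2a and Ces2e thus moved opposite ways with the diet in both genotypes, and each was tested only for itself.

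Ces1g encodes a hydrolase of liver lipid, and mice that lack it are known to develop fatty liver. Its log2 signal was 11.40 on LASS2-/- HFD, 10.70 on WT HFD, 10.21 on LASS2-/- chow and 10.15 on WT chow. Both HFD arrays lay above both chow arrays, while the chow arrays lay close together. The HFD array was 2.28-fold above the chow array under the LASS2-/- label and 1.46-fold above it in WT. The mean diet effect was 0.87 ± 0.15 log2 (adjusted p = 0.00124 in limma). The array labelled LASS2-/- was 1.62-fold above WT on HFD and 1.04-fold above it on chow, and the chow ratio of 0.06 log2 turned to -0.04 with arrays scaled to equal medians. The mean genotype effect was 0.38 ± 0.15 log2 (adjusted p = 0.345 in limma). The genotype ratio on HFD exceeded that on chow by 0.64 log2, a difference of 4 single arrays that has no test. Of the 3123 brightest genes, 1.86% were at least as far apart between diets under the LASS2-/- label, 8.93% in WT and 1.34% between genotypes on HFD, but 70.1% on chow.

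With 1 probe set read per gene, the diet ratio of Ces1g under the LASS2-/- label was the only ratio of 2 arrays past 2-fold among the measured genes. In that comparison 1 of 7 carboxylesterases was past 2-fold, against 5% of all genes. The counts were 0 of 7 for diet in WT (3.37% of all genes), 0 of 7 for genotype on HFD (1.96%) and 0 of 7 for genotype on chow (1.58%). With a threshold of 1.5-fold the counts were 2 of 7 for diet under the LASS2-/- label (17.3% of all genes), 1 of 7 for diet in WT (12.8%), 2 of 7 for genotype on HFD (9.05%) and 0 of 7 for genotype on chow (9.04%), and each gene counted was Ces2a or Ces1g. These ratios rest on 1 array per group and have no replicate check.

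**Figure D2:**
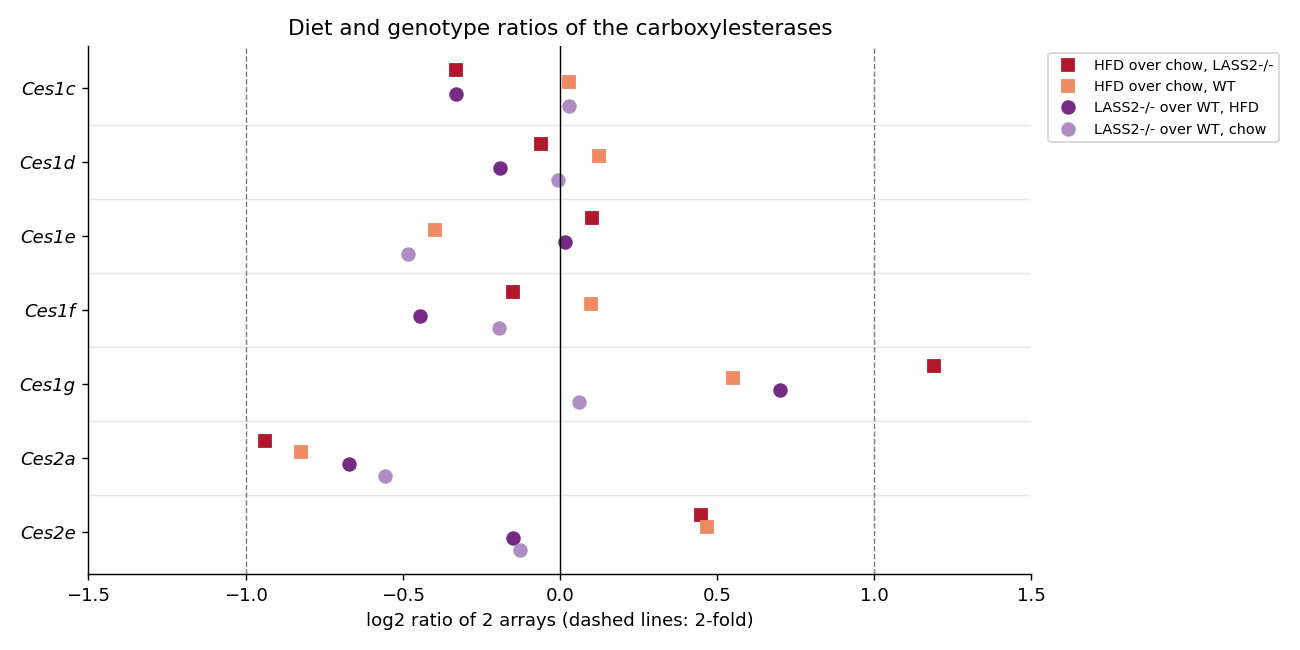
Log2 ratios of 2 arrays are plotted for each measured carboxylesterase, with squares for HFD over chow and circles for LASS2-/- over WT, and dashed lines at 2-fold. All 4 ratios of Ces2a lie below 0, and Ces1g under the LASS2-/- label is the single point beyond 2-fold.

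Ces1d, known as triacylglycerol hydrolase, releases fatty acids from stored triglyceride for lipoprotein assembly. Its brightest probe set, 1435370_a_at, read 14.34 log2 on LASS2-/- HFD, 14.53 on WT HFD, 14.40 on LASS2-/- chow and 14.41 on WT chow. The probe set 1449081_at read 14.03 log2 on LASS2-/- HFD, 14.44 on WT HFD, 14.14 on LASS2-/- chow and 14.32 on WT chow. Both spanned little between diets, with mean diet effects of 0.03 and 0.00 log2 that did not pass in a fit of all probe sets (adjusted p = 0.860 and 0.993 in limma). Their mean genotype effects in that fit were -0.10 ± 0.08 and -0.29 ± 0.08 log2 (adjusted p = 0.798 and 0.217 in limma).

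The third Ces1d probe set, 1435371_x_at, behaved otherwise. Its log2 signal was 12.19 on LASS2-/- HFD, 12.77 on WT HFD, 13.62 on LASS2-/- chow and 13.33 on WT chow, with both HFD arrays below both chow arrays. It was 2.70-fold lower on HFD under the LASS2-/- label and 1.47-fold lower in WT, and its mean diet effect was -0.996 ± 0.15 log2 in the fit of all probe sets (adjusted p = 0.0018 in limma). Its genotype ratios differed in sign, at -0.58 log2 on HFD and 0.30 on chow. The suffix _x_at marks sets with probes that can also bind other, similar transcripts, so this signal cannot be assigned to Ces1d alone. With the mean of its 3 probe sets Ces1d had a mean diet effect of -0.32 log2 (adjusted p = 0.117 in limma), against 0.03 log2 (0.854) with the brightest set. No direction with diet is therefore given for Ces1d.

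**Figure D3:**
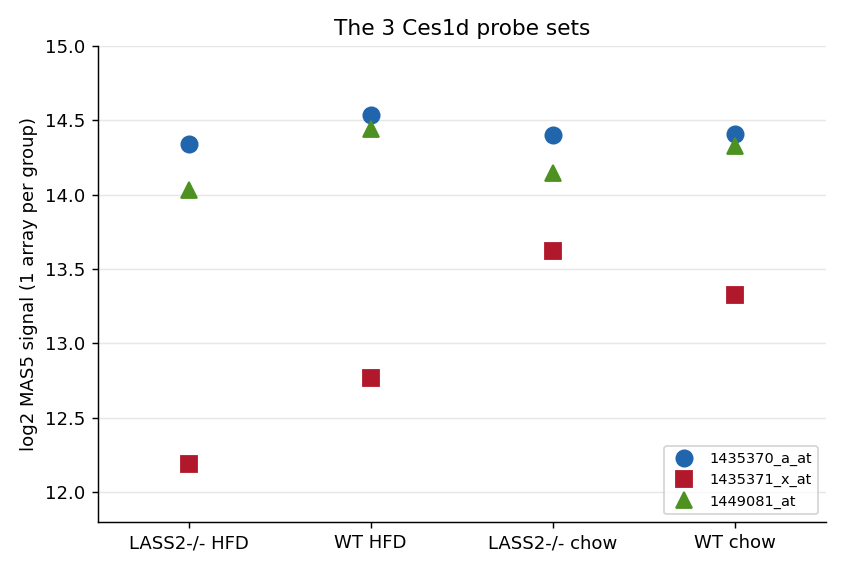
The log2 MAS5 signal of the 3 probe sets of Ces1d is plotted by group, 1 array per point. The set 1435371_x_at spans 1.43 log2 and is lower on both HFD arrays, while 1435370_a_at spans 0.19 and 1449081_at 0.41.

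Ces1f, a relative of triacylglycerol hydrolase, read 14.21 log2 on LASS2-/- HFD, 14.65 on WT HFD, 14.36 on LASS2-/- chow and 14.55 on WT chow. Both arrays labelled LASS2-/- lay below both WT arrays, by 1.36-fold on HFD and 1.14-fold on chow. The mean genotype effect of -0.32 ± 0.08 log2 did not pass over all genes (adjusted p = 0.105 in limma). Its only probe set carries the suffix _s_at, which marks probes shared by several transcripts. As genes of this family are close copies, probes of any of them may bind the RNA of another, which was not tested. Its mean diet effect of -0.02 log2 changed sign with quantile normalization and with equal medians.

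Ces1c, the esterase secreted into mouse plasma, read 14.83 log2 on LASS2-/- HFD, 15.16 on WT HFD, 15.16 on LASS2-/- chow and 15.13 on WT chow. The array labelled LASS2-/- HFD was the low one, 1.26-fold below WT HFD and 1.26-fold below LASS2-/- chow, and the other 3 spanned little. Its mean effects were -0.15 ± 0.09 log2 for diet and -0.15 ± 0.09 log2 for genotype (adjusted p = 0.320 and 0.619 in limma). Ces1e encodes egasyn, which holds beta-glucuronidase in the endoplasmic reticulum. It read 11.83 log2 on LASS2-/- HFD, 11.82 on WT HFD, 11.73 on LASS2-/- chow and 12.21 on WT chow. The WT chow array was the high one, and the array labelled LASS2-/- chow was 1.40-fold below it. Its mean effects were -0.15 ± 0.12 log2 for diet and -0.23 ± 0.12 log2 for genotype (adjusted p = 0.507 and 0.546 in limma).

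Across the 7 measured genes the median log2 ratio was -0.06 for diet under the LASS2-/- label, 0.10 for diet in WT, -0.19 for genotype on HFD and -0.13 for genotype on chow. The median for diet under the LASS2-/- label turned to 0.10 with quantile normalization and 0.02 with equal medians. The median of all genes was -0.01 for diet under the LASS2-/- label, 0.02 for diet in WT, 0.00 for genotype on HFD and 0.03 for genotype on chow. The genotype ratio was below 0 in 5 of 7 carboxylesterases on HFD (45.7% of all genes) and in 5 of 7 on chow (45.4%). On chow the count was 6 with quantile normalization (47.5% of all genes), 7 with equal medians (59.7%) and 4 with the mean of probe sets (44.4%), while on HFD it was 5 with each of these. The diet ratios were above 0 in both genotypes for Ces1g and Ces2e and below 0 in both for Ces2a under these settings as well. Those of Ces1c and Ces1e differed in sign between genotypes under each of them. Those of Ces1d and Ces1f depended on the setting: Ces1d was above 0 in both genotypes with quantile normalization and equal medians and below 0 in both with the mean of probe sets, and Ces1f was above 0 in both with quantile normalization.

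**Figure D4:**
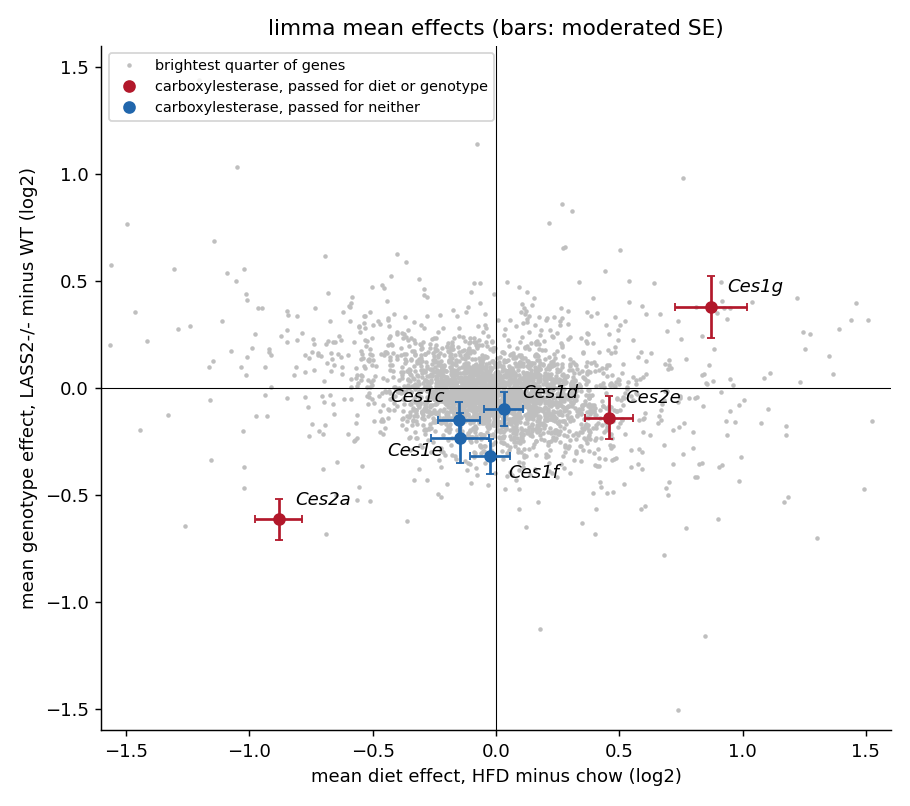
The mean diet effect is plotted against the mean genotype effect, both in log2, with bars for moderated standard errors, for the 7 carboxylesterases over the 3123 brightest genes in grey, of which 18 lie beyond the axes. Ces2a stands at -0.88 and -0.61, Ces1g at 0.87 and 0.38, and Ces2e at 0.46 and -0.14.

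Of 10 other carboxylesterase genes, 5 entered the fit, and 0 passed limma for diet (11.3% of all genes) or genotype (0.913%). At an unadjusted p under 0.05, 1 was found for diet (23.8% of all genes) and 0 for genotype (10.4%). That 1 was Ces2b, which lies between Ces2a and Ces2c on the chromosome. It read 7.41 log2 on LASS2-/- HFD, 6.95 on WT HFD, 8.11 on LASS2-/- chow and 7.90 on WT chow. Both HFD arrays were below both chow arrays, with a mean diet effect of -0.83 ± 0.26 log2 (adjusted p = 0.0578 in limma). Ces2g, a further gene of the Ces2 block, spanned only 0.10 log2 over the 4 arrays. Ces1h, the neighbour of Ces1g, read 7.95 log2 on LASS2-/- HFD and 7.16 on WT HFD, and 7.49 on LASS2-/- chow and 7.50 on WT chow. Its mean diet effect of 0.06 ± 0.29 log2 had an adjusted p of 0.926 in limma. Ces2b and Ces1h were named after their values were seen.

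Among 30 measured lipases and esterases outside the family, 0 passed limma for genotype (0.913% of all genes). An unadjusted p under 0.05 for genotype was found for 5 of them (10.4% of all genes). With diet 7 rose (6.26% of all genes) and 5 fell (5.04%) in limma. Those that fell included Abhd1 with a mean diet effect of -2.59 ± 0.24 log2 (adjusted p = 7.16e-06 in limma), the cholesteryl ester hydrolase Nceh1 with -0.71 ± 0.13 log2, Abhd5, the coactivator of adipose triglyceride lipase, with -0.65 ± 0.13 log2, and the kynurenine formamidase Afmid with -0.57 ± 0.12 log2. Those that rose included Abhd4 with 0.91 ± 0.12 log2, Abhd15 with 0.75 ± 0.14 log2, Abhd2 with 0.53 ± 0.11 log2 and Lipa, the lysosomal acid lipase, with 0.47 ± 0.10 log2. With the mean of all probe sets Abhd2, Abhd15, Abhd5 and Afmid did not pass, nor did Lipa without probe sets ending in _x_at or _s_at.

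Of 12 genes of triglyceride storage and lipoprotein assembly, 0 passed limma for diet (11.3% of all genes) or genotype (0.913%). At an unadjusted p under 0.05, 3 were found for diet (23.8% of all genes) and 2 for genotype (10.4%). Mttp, which loads lipid onto apolipoprotein B, had 12.78 log2 on LASS2-/- HFD, 12.88 on WT HFD, 12.84 on LASS2-/- chow and 13.04 on WT chow. It and Apob had mean diet effects of -0.11 and -0.08 log2 (adjusted p = 0.504 and 0.613 in limma).

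Measured were 13 transcription factors known to act on these genes or on liver gene expression. With diet 4 rose (6.26% of all genes) and 2 fell (5.04%), and with the LASS2-/- label 1 rose (0.56%) and 2 fell (0.352%). Nr1i3 encodes CAR, a drug-sensing nuclear receptor. It read 10.83 log2 on LASS2-/- HFD, 11.46 on WT HFD, 10.31 on LASS2-/- chow and 10.81 on WT chow. It rose with diet, by 0.59 ± 0.11 log2 (adjusted p = 0.00358 in limma). It fell with the LASS2-/- label, with a mean effect of -0.57 ± 0.11 log2 (adjusted p = 0.0338 in limma) that passed in 4 of 10 alternatives. Like Ces2a it was thus lower under the LASS2-/- label on both diets, but it went the other way with the diet. Whether any of these factors acted on the carboxylesterases here was not tested. Nr1i2, which encodes the related receptor PXR, had a mean diet effect of 0.37 log2 and a mean genotype effect of -0.32 log2 (adjusted p = 0.0863 and 0.371 in limma). With diet, Srebf1, a factor of lipid synthesis, rose by 0.85 ± 0.18 log2, Ppara, the fatty acid sensing receptor, by 0.39 ± 0.09 log2 and Nfe2l2, the oxidative stress factor NRF2, by 0.38 ± 0.11 log2. The diet ratio of Srebf1 was 1.45 log2 under the LASS2-/- label and 0.25 in WT, and its diet call was lost with robust moderation (adjusted p = 0.580 in limma). Srebf1 and Ppara each passed for diet in 8 of 10 alternatives. The 2 that fell with diet were the hepatocyte regulators Onecut1 (5.65-fold lower on HFD) and Hnf4a (-0.32 ± 0.08 log2). Nfe2l2 and Hnf4a each passed in 5 of 10 alternatives. With the LASS2-/- label Onecut1 had a mean effect of 0.97 ± 0.17 log2 and Srebf1 of -1.16 ± 0.18 log2, and each passed in 5 of 10 alternatives.

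In whole liver, fewer cells of a type and less RNA per cell cannot be told apart. The 8 macrophage markers were all at or above the median on all 4 arrays. With the LASS2-/- label 3 rose (Marco, Mpeg1 and Lyz2) and 0 fell, Lyz2 in only 3 of 10 alternatives. At an unadjusted p under 0.05 in limma, 7 of the 8 were found for genotype, against 10.4% of all genes. For diet 3 of the 8 were found, against 23.8%. Each of the 8 read higher under the LASS2-/- label than in WT on both diets. With diet 1 of the 8 rose, Lyz2, with a mean effect of 0.50 ± 0.13 log2 (adjusted p = 0.0261 in limma) that passed in 4 of 10 alternatives. The 8 markers' summed level was 14.77 log2 on LASS2-/- HFD and 14.05 on WT HFD, and 14.39 on LASS2-/- chow and 14.01 on WT chow. Of the hepatocyte markers 0 of 5 passed for genotype, with 1 at an unadjusted p under 0.05. With diet only Cps1, a urea cycle enzyme, fell, with a mean effect of -0.41 ± 0.07 log2.

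Other markers moved with diet too. Of 5 endothelial markers Cdh5 rose, with a mean diet effect of 0.75 ± 0.17 log2, and of 4 stellate cell markers Dcn rose (0.27 ± 0.08 log2) and Des fell (-2.28 ± 0.45 log2). The summed endothelial level was 11.95 log2 on LASS2-/- HFD, 12.10 on WT HFD, 11.79 on LASS2-/- chow and 11.58 on WT chow. The summed stellate level was 13.90 log2 on LASS2-/- HFD, 14.08 on WT HFD, 13.72 on LASS2-/- chow and 13.83 on WT chow. Dcn, at 13.16 to 13.52 log2, and Reln, at 11.92 to 12.35, make up most of this sum. Des and Lrat read at most 8.36 log2 and add little to it. Of 4 lymphocyte markers 2 entered the fit, Ighm and Jchain, and both were highest on WT HFD. Their summed level was 11.11 log2 on LASS2-/- HFD, 12.62 on WT HFD, 11.18 on LASS2-/- chow and 11.17 on WT chow. Neither passed for diet (adjusted p = 0.0774 and 0.114 in limma). The other 2, Cd3e and Cd79a, stayed below the array median on all 4 arrays and were not highest on WT HFD. Cd3e was highest on WT chow (6.14 log2), and Cd79a was lowest on WT HFD (2.12 log2).

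Of 5 intestinal markers 3 entered the fit. Fabp2 rose with diet, by 0.47 ± 0.09 log2, and lay between 13.05 and 13.80 log2 on the 4 arrays. Lgals4 lay between 9.06 and 9.58 log2. Cdx2 reached the array median only on LASS2-/- HFD, at 6.38 log2, and Vil1 stayed below it on all 4. Whether Fabp2 marks intestinal cells here was not tested. Of 5 adipocyte markers 1 entered, Retn, at 6.27 log2 on LASS2-/- HFD, 5.83 on WT HFD, 6.31 on LASS2-/- chow and 2.81 on WT chow, at or above the array median only on the LASS2-/- arrays. Adipoq and Lep stayed below the median on all 4. The part of these markers in the differences of Ces1g, Ces2a and Ces2e was not tested.

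Over the 4 arrays and by the brightest probe set of each gene, Ces2a spanned 2.82-fold and Ces1g 2.38-fold, more than the other measured members. Among 10111 genes above the array medians throughout, the profiles nearest to Ces2a after centring were those of Tnnc1, Prrt4 and Lce1i, at root mean square distances of 0.03, 0.06 and 0.11 log2. Those nearest to Ces1g were Tnfsf10, Cd48 and Gsta2, at 0.04 log2 each. Gsta2, a glutathione transferase, read 13.14 log2 on LASS2-/- HFD, 12.49 on WT HFD, 11.87 on LASS2-/- chow and 11.88 on WT chow. A likeness over 4 values is a description of these arrays only.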

How the data were processed

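Liver RNA of 4 groups was hybridised to 1 Affymetrix 3' array each. The deposited values are log2 signals, made by the authors with MAS5 per the submitters' processing notes, with version and scaling target not given in the sources used here. Linear trimmed means, with 2% of probe sets left out at each end, were 496.0 to 496.2, so no scaling was added. No replicates, replicate numbers or batches are labelled, and the number of arrays limits precision.

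Probe sets were named from the platform annotation through gene numbers (GRCm38.p6). A gene entered when a probe set reached the array median on at least 1 array and was represented by its brightest such set. Ratios used arrays floored at their medians, which touched none of the 7 measured carboxylesterases. limma 3.58.1 in R 4.3.3 fitted genotype and diet additively to values without the floor, with 1 residual degree of freedom, a trend in the moderation and Benjamini-Hochberg adjustment over all genes. On simulated data the fit recovered added changes and called more unchanged genes than the nominal share, so its adjusted p-values are lenient. Python 3.11.15, pandas 2.3.3 and matplotlib 3.10.9 did the rest.

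The carboxylesterases, the other lists and the tests were chosen with earlier results of these data known. Named were all members, Cers2, up to 4 passing genes per list and direction, and the 3 nearest profiles of the 2 members of widest range. Genes of other lists that did not pass were named for their role after their values were seen. Of 20 endothelial, stellate, cholangiocyte, lymphocyte and acinar markers, 16 entered the fit. Of these, 0 passed for genotype, with 4 at an unadjusted p under 0.05 (10.4% of all genes). With diet 2 rose and 1 fell, and 7 had an unadjusted p under 0.05 (23.8% of all genes). Alternatives concerned normalization, floor, filter, probe sets, fold threshold and moderation.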

Additional observations from a re-analysis of the deposited data

How the results depend on the processing

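Across 306 recomputed values of the single carboxylesterases, 297 kept their direction and their side of the threshold, or stayed under 2-fold. Of these, 8 changed sign near 0. Many of the 306 could not move, so the count is no measure of robustness. All measured genes but Ces1d have 1 probe set, and all sets lie above the floor. Floor, filter and probe-set settings therefore left the ratios and mean effects of those genes unchanged, apart from removing Ces1f. The mean diet effect of Ces1d turned from 0.03 log2 to -0.32 with the mean of its probe sets and to -0.996 for 1435371_x_at alone, and that of Ces1f from -0.02 to 0.10 with quantile normalization and 0.0095 with equal medians. The cause was not tested. Leaving out _s_at sets removes Ces1f. No paired analysis was possible because each group has 1 array, and no array can be left out of a fit with 1 residual degree of freedom.

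Carboxylesterases passing for genotype numbered 0 instead of 1 with quantile normalization and without trend. At an unadjusted p under 0.05 they numbered 4 and 1, against 9.54% and 6.56% of all genes. Those passing for diet numbered 0 instead of 3 without trend (3 unadjusted, against 14.3% of all genes). With every other alternative Ces1g, Ces2a and Ces2e all passed. With a 1.5-fold threshold, 2 instead of 0 were past it for genotype on HFD, 1 instead of 0 for diet in WT and 2 instead of 1 for diet in LASS2-/-, all of them Ces2a or Ces1g. Of 240 recomputed effects of other named genes, which leave out the endothelial and stellate markers, 177 kept their call, 63 lost it and 0 reversed.

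Over all genes, 114 passed for genotype, against 23 with quantile normalization, 22 with equal medians, 52 without filter, 39 with the mean of probe sets, 72 with every probe set and 0 without trend (820 unadjusted). For diet 1412 passed, against 898 with equal medians, 719 with the mean of probe sets and 0 without trend (1783 unadjusted). At the 25th percentile floor, without filter and at 1.5-fold, the genes past the fold threshold numbered 1789, 3731 and 1129 instead of 198 for genotype on chow, and 1576, 3599 and 1131 instead of 245 on HFD. For diet they numbered 1858, 3882 and 1601 instead of 421 in WT, and 2280, 4182 and 2167 instead of 625 in LASS2-/-. Equal medians moved the median genotype ratio on chow from 0.03 to -0.07 log2, and turned 145 higher and 53 lower genes there into 104 and 95, 70 and 44 passing for genotype into 11 and 11, and 389 and 236 for diet in LASS2-/- into 495 and 189.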
